A study of Homo sapiens with 8 samples.

Results

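The HOX genes encode homeodomain transcription factors that give cells their position along the head to tail axis of the embryo. In mammals they stand in 4 clusters, HOXA on chromosome 7, HOXB on chromosome 17, HOXC on chromosome 12 and HOXD on chromosome 2, and the order of genes along a cluster follows the order of the body parts they pattern, from group 1 at the 3′ end to group 13 at the 5′ end. Members that share a number in different clusters are paralogues. In the adult gut epithelium part of this code is kept, and the clusters are a textbook site of opposed regulation by Polycomb proteins, which hold genes silent, and trithorax proteins, which include the enzymes that place H3K4me3 (trimethylation of lysine 4 of histone H3), a mark of the start sites of active genes. All protein-coding genes named HOXA, HOXB, HOXC or HOXD with a number were taken, which gave 39 of the 20090 protein-coding genes on chromosomes 1 to 22 and X: 11 in HOXA, 10 in HOXB, 9 in HOXC and 9 in HOXD.

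HCT8 cells, an established line from a human ileocecal colorectal adenocarcinoma, were cultured for 5 h with membrane vesicles (MVs) of *E. coli* strain MC1061 or of *V. cholerae* strain C6706, or received no MVs (mock; the methods name a buffer control, and the labels call these cells untreated). H3K4me3 ChIP sequencing and FAIRE sequencing, which enriches DNA free of nucleosomes, were done with 1 library per treatment and assay, so 6 libraries of peaks are described and the 2 input libraries of the series were not analysed here. The labels give the ChIP antibody for the H3K4me3 libraries, and the assay of the FAIRE libraries was taken from the study's methods. All libraries come from this 1 cell line, MVs are a mixture of bacterial products, and there is no replicate culture: no difference between treatments was tested, and no p-value is given. Where an interval is printed, it is the exact (Clopper-Pearson) 95% interval of a ratio of tags and covers counting error only. In such bulk libraries fewer cells with a mark and less of it per cell cannot be told apart.

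The libraries differed widely in depth. The H3K4me3 libraries held 3463875, 10528314 and 13011839 tags, in the order mock, *E. coli* MVs, *V. cholerae* MVs that is kept wherever 3 values stand together, with 38.6%, 53.9% and 56.1% of the tags in called peaks. The FAIRE libraries held 14474665, 7888670 and 12077180 tags, with 7.12%, 37.3% and 13.9% in peaks. Values are normalized tag counts per 10000000 tags of the library, and each gene was given the summed value of the peaks within 1000 bp of any annotated transcription start site (TSS). A gene without a peak is one where nothing passed the caller's threshold, and the lowest normalized tag count listed was 11.5 in the mock H3K4me3 library against 7.6 and 6.92 in the MV libraries. If tags are scaled to those in peaks, log2 ratios to mock fall by 0.48 (*E. coli* MVs) and 0.54 (*V. cholerae* MVs) in H3K4me3, and by 2.39 and 0.97 in FAIRE. An H3K4me3 peak stood at 60.4%, 64.3% and 65.2% of all protein-coding genes in mock, *E. coli* MVs and *V. cholerae* MVs. Of 12 markers of colon epithelium, 9, 10 and 9 carried one, among them EPCAM, CDH1, KRT8, KRT18, VIL1 and HNF4A. KRT20 and CEACAM5 had none in any library. Of 12 blood cell markers only CD14 was marked, in all 3 libraries, and of 14 markers of fibroblasts, endothelium, muscle, neurons and liver SYN1 was marked in all 3 and COL1A1 and RBFOX3 in both MV libraries.

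Start sites of HOX genes are of very unequal base composition, and 3 RefSeq promoters are shown because they span what was seen with H3K4me3: HOXA13, whose peak had the highest ratio to mock of any HOX region, HOXA7, which had no H3K4me3 peak although its promoter is rich in CpG, and HOXD4, which had no peak and few CpG. Each is given 5′ to 3′ on the strand of the gene, from 250 bases before to 50 after the RefSeq start in GRCh38.p14, with every CG in capitals. CG reads the same on both strands, and 96% of all 35116 promoters of the table hold at least 1. HOXA13 (chr7:27200042-27200341, minus strand) had 44, more than 95.8% of all promoters, HOXA7 (chr7:27156626-27156925, minus strand) had 31 and HOXD4 (chr2:176151300-176151599, plus strand) had 4.
HOXA13: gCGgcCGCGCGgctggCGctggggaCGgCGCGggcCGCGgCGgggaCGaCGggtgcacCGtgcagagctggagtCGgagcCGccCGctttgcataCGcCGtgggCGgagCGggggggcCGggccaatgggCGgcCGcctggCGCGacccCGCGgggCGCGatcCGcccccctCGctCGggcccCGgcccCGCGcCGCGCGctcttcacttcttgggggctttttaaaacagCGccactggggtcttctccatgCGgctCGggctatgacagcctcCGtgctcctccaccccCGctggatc
HOXA7: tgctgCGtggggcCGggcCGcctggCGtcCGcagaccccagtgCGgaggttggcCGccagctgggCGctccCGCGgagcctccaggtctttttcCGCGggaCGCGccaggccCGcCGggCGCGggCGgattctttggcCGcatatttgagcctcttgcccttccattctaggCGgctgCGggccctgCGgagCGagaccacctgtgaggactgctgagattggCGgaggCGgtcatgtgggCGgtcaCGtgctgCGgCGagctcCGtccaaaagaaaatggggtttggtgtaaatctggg
HOXD4: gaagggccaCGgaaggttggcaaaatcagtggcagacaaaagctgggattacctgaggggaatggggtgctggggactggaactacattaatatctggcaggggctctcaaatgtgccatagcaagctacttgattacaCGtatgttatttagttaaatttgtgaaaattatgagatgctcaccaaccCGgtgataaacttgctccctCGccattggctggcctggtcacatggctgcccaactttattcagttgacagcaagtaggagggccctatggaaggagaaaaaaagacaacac
Of the 39 genes, 20 had a promoter in the table, 18 of them a single one. Among these, the 10 with an H3K4me3 peak in mock had a median of 26 CpG (range 13 to 44), and the 8 without had a median of 21 (range 4 to 31), against 14 over all promoters. A peak near any annotated start site of a gene counted, so it need not lie at the RefSeq window whose CpG are given. HOXC4 and HOXC5 share 1 window of 15 CpG, so the marked genes stand for 9 distinct windows with a median of 27. The ranges overlap in part: HOXD1, HOXD8 and HOXA13 lay above every unmarked gene, and HOXD4, HOXA2 and HOXB1 below every marked one.

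In the mock library 25 of the 39 HOX genes (64.1%) had an H3K4me3 peak at a start site, against 60.4% of all protein-coding genes. The *E. coli* MV library had 27 genes (69.2%, against 64.3%) and the *V. cholerae* MV library 26 (66.7%, against 65.2%). As a family, then, HOX genes were marked about as often as other genes, although they have fewer annotated start sites, with a median of 2 per gene (range 1 to 12) against 5. The same 25 genes were marked in all 3 libraries. They were served by only 23, 25 and 23 different peaks, since neighbouring genes share peaks, so the genes are not independent observations.

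The clusters were unlike each other. In HOXB, 8 of 10 genes were marked in every library, all of HOXB3 to HOXB9 and HOXB13, and only HOXB1 and HOXB2, the genes at the 3′ end, had no peak. In HOXA, the genes marked in every library included HOXA3, HOXA4, HOXA6, HOXA9, HOXA10, HOXA11 and HOXA13, and HOXA2, HOXA5 and HOXA7 had no peak in any. A peak at any annotated start site counts, and HOXA9 is counted through a peak that it shares with HOXA10. In HOXC, 6 of 9 were marked in every library (HOXC4, HOXC5, HOXC6, HOXC8, HOXC9 and HOXC11), HOXC12 with *E. coli* MVs alone, and HOXC10 and HOXC13 in none. HOXD had the fewest, with 3 of 9 in every library (HOXD1, HOXD3 and HOXD8), HOXD11 with both MVs, and no peak at HOXD4, HOXD9, HOXD10, HOXD12 or HOXD13. The map of called peaks along the clusters shows this order.

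**Figure D1:**
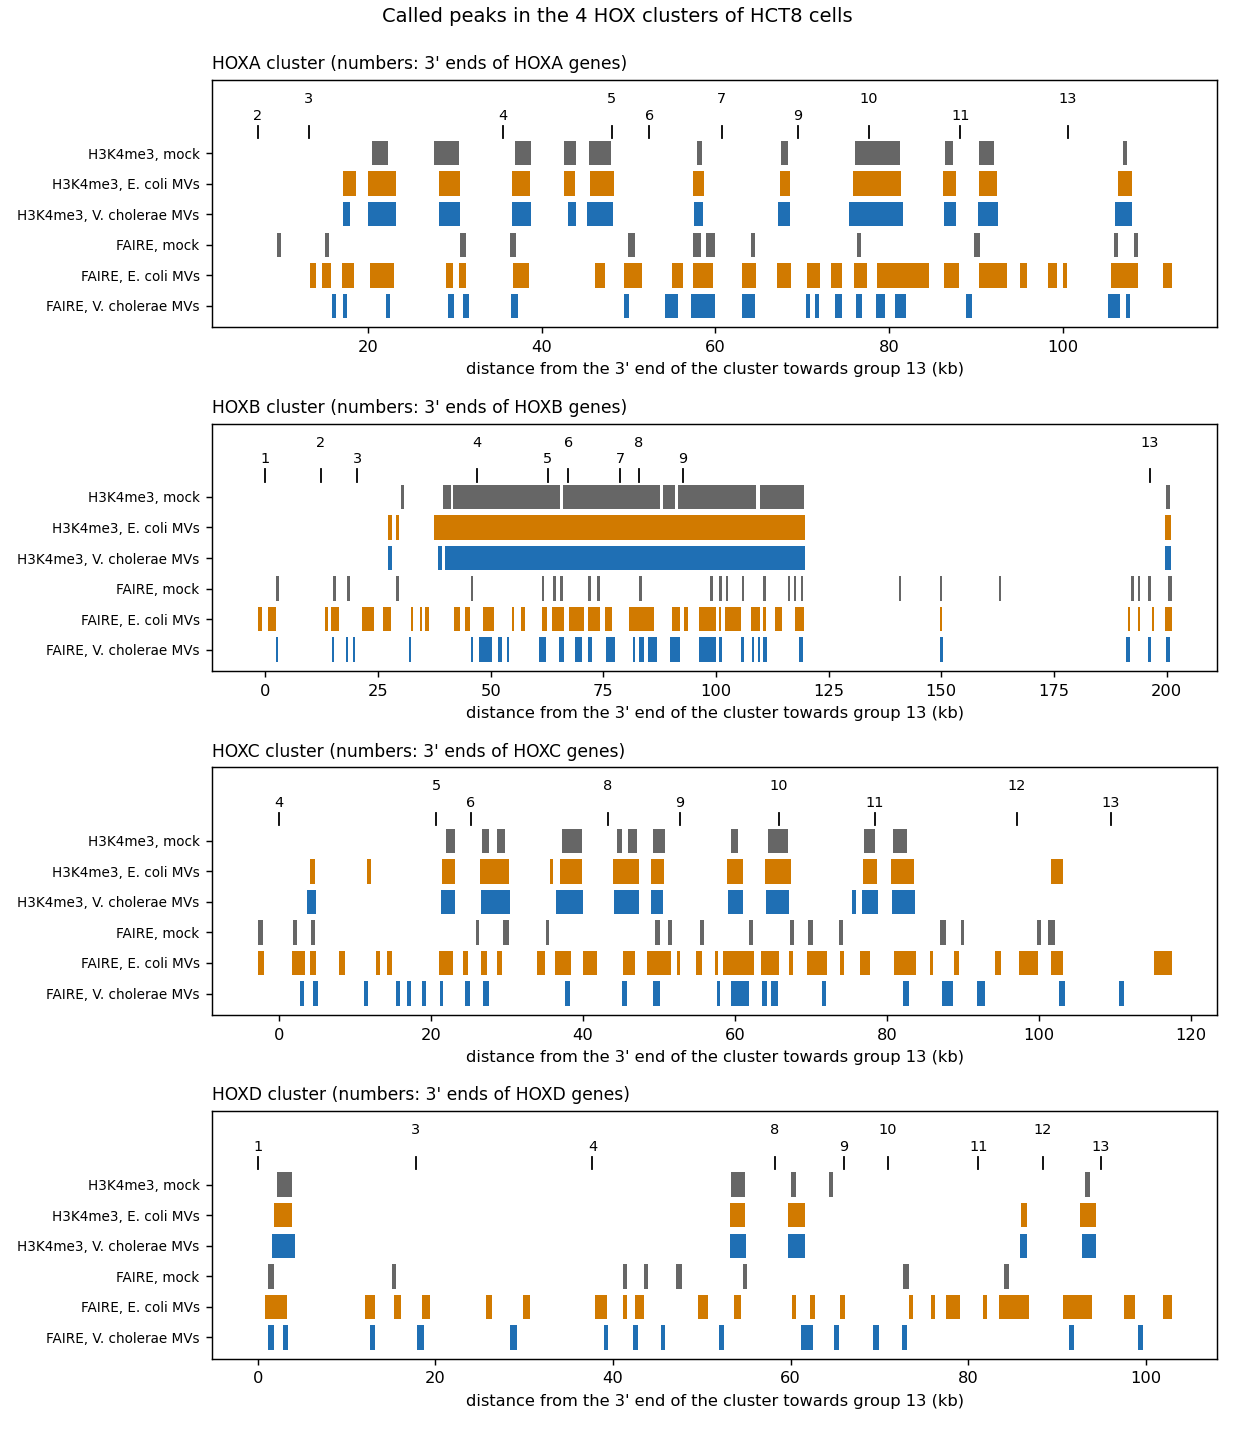
Called peaks (blocks) of each library along the 4 HOX clusters, with the distance in kb from the 3′ end of the cluster towards group 13 on the horizontal axis, numbered ticks at the 3′ ends of the genes, the first few kb of HOXA not drawn, and mock in grey, *E. coli* MVs in orange and *V. cholerae* MVs in blue. HOXB carries a run of H3K4me3 of about the same extent in all 3 libraries, while HOXD holds 5 H3K4me3 peaks in each.

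By paralogue group, 5 of the 8 genes of groups 1 to 3, 15 of the 19 of groups 4 to 9 and 5 of the 12 of groups 10 to 13 were marked in all 3 libraries. Every member of groups 3 (HOXA3, HOXB3, HOXD3), 6 (HOXA6, HOXB6, HOXC6) and 8 (HOXB8, HOXC8, HOXD8) was marked, and no member of groups 2 (HOXA2, HOXB2) and 12 (HOXC12, HOXD12) was marked in all 3. Groups 10 to 13, which pattern the hind part of the body, were represented by HOXA10, HOXA11, HOXA13, HOXB13 and HOXC11. HOXB13, a gene of hindgut and prostate, stood apart from the HOXB run, with normalized tag counts of 40.4, 73.1 and 116.8 in mock, *E. coli* MVs and *V. cholerae* MVs.

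H3K4me3 covered a far larger share of the clusters than of the chromosomes they stand on. The HOXA span (chromosome 7, 107.1 kb) was covered to 20.1%, 25.6% and 26.4%, where chromosome 7 as a whole was covered to 1.08%, 1.55% and 1.45%. The HOXB span (hg19 chr17:46605888-46806112, 200.2 kb) was covered to 38.8%, 42.3% and 41%, against 2.57%, 3.77% and 3.87% of chromosome 17. The HOXC span (chr12:54332615-54449814, 117.2 kb) had 13.9%, 22.9% and 22%, and the HOXD span (chr2:176957449-177055635, 98.2 kb) had 4.89%, 8.01% and 8.87%. In all 3 libraries the order was HOXB, HOXA, HOXC, HOXD, and the lowest, HOXD, was still above chromosome 2 at 1.08%, 1.56% and 1.46%. Within the peaks the tag density was closer between clusters. Per kb of peak, pooled over the peaks of a span, the normalized tag count in mock was 76 in HOXA, 93.9 in HOXB, 71.7 in HOXC and 84.2 in HOXD. With *E. coli* MVs these densities were 98.7, 115.4, 72.3 and 80.3, and with *V. cholerae* MVs 108.5, 120.4, 76.4 and 85. The medians of single peaks over the whole lists, 58.2, 34.2 and 34.1, are an unlike measure and no background for these pooled values. All peaks of a list together held 38.6%, 53.9% and 56.1% of the tags in 34.9, 50.1 and 48.1 Mb. The clusters thus differed from each other mainly in how much of their length was marked.

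**Figure D2:**
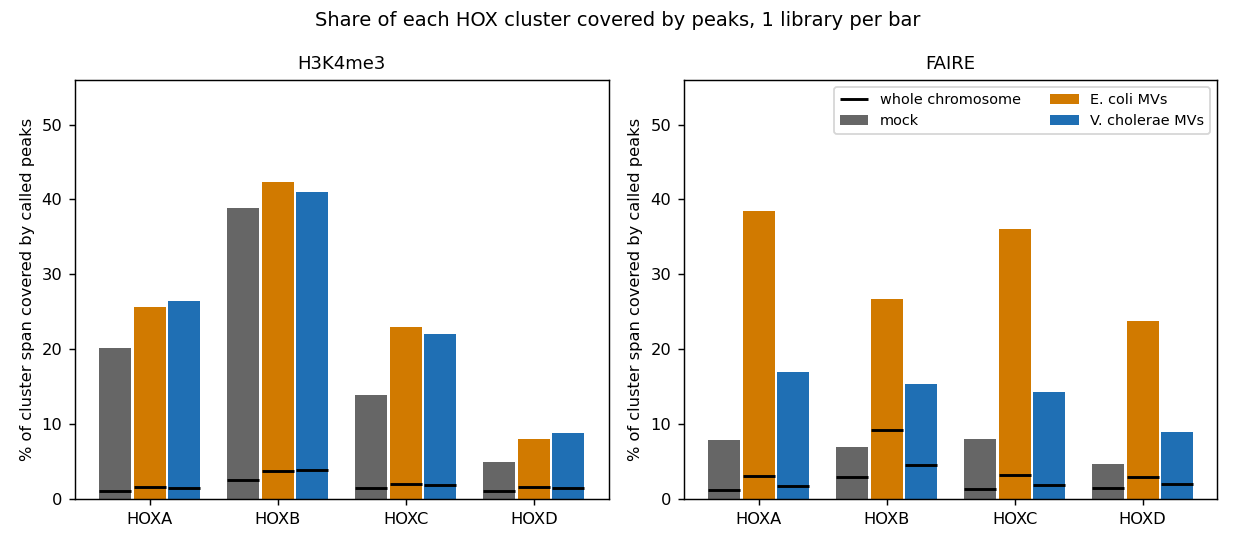
Share of each HOX cluster span (%) inside called peaks of H3K4me3 (left) and FAIRE (right), 1 library per bar, with a black line at the share of the whole chromosome in the same library. HOXB has the highest H3K4me3 bars (38.8% to 42.3%) and HOXD the lowest (4.89% to 8.87%), and in FAIRE the bars with *E. coli* MVs (23.8% to 38.5%) stand above the others in every cluster.

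The H3K4me3 of HOXB was 1 stretch. With *E. coli* MVs a single peak of 82413 bp ran from chr17:46643301 to chr17:46725714, over the start sites of HOXB3 to HOXB9, with 10245 tags and a normalized tag count of 9730.9. With *V. cholerae* MVs it was 1 peak of 79873 bp and a small one beside it, with 12799 tags and 9836.4. In mock the same ground was listed as 6 peaks from 46645291 to 46725485, 80194 bp end to end, with 2523 tags and 7283.7, and with gaps of 555 to 903 bp between them. The edges of the stretch lay close together in the 3 libraries: 21.8, 22 and 21.9 kb beyond the start of HOXB9, and 22.8, 20.8 and 21.7 kb short of the start of HOXB2. Between the stretch and the peak of HOXB13 no H3K4me3 peak was listed in any library, with 80.6, 80.4 and 80.4 kb from its edge to the start of HOXB13. FAIRE peaks were listed in this interval in every library.

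Among all H3K4me3 peaks of the genome, the HOXB peak was the widest and the one with the most tags in both MV lists, of 31466 and 29347 peaks. The next widest had 29280 and 36644 bp, and the next most tags were 3823.0 and 4398.3. In the mock list the widest of the 6 pieces, 23687 bp, was the third by width and the fourth by tags. When peaks separated by gaps under 1000 bp were joined in every list, a choice made after seeing the data, the HOXB stretch came first by both measures in all 3 libraries, at 2.44, 2.29 and 2.22 times the width of the next and 2.48, 2.12 and 2.24 times its tags. The mock library is also the shallowest, and the part of depth in the gaps was not tested. The input, 1 library for all 3 H3K4me3 lists and scaled down to the mock library in the mock list, held 2.22, 5.69 and 5.73 tags per kb of the stretch, against medians of 2.17, 5.5 and 5.14 over all peaks wider than 10 kb, so the input there was near that of other wide peaks.

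Over the whole stretch the difference to mock was small. Its log2 ratio was 0.42 (interval 0.35 to 0.48) for the *E. coli* MV library and 0.43 (0.37 to 0.50) for that of *V. cholerae* MVs. These are near the medians of all 17695 regions found in the 3 libraries, 0.44 and 0.47. Per kb of peak the ratios of the stretch were 0.31 and 0.36, above the medians of 0.08 and 0.11 over all regions. Summed per gene, the same tags look different. HOXB9, for which mock has 1 piece, went from a normalized tag count of 1229.8 in mock to 9730.9 and 9816.4, log2 ratios of 2.98 and 3.0, and HOXB4 from 2243.2 to the same MV values, because the sum of a gene takes in the whole joined peak. The ratios of HOXB3 to HOXB9 per gene therefore carry the joining of peaks, and the stretch is better read as 1 region. The stretch held 0.189%, 0.181% and 0.175% of all tags in peaks, a slightly lower share with either MV kind than in mock.

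Against mock, 23 of the 25 HOX genes with a peak in both libraries had more H3K4me3 than counting error allows with *E. coli* MVs, where 74.7% of all protein-coding genes did, and none had less, against 0.29% of all genes. With *V. cholerae* MVs it was again 23 of 25, against 75.5%, and none lower, against 1.92%. The median log2 ratio was 1.07 and 1.12 for the HOX genes and 0.52 and 0.63 for all genes. More tags than in mock past counting error were thus found at most genes of these libraries, and the higher HOX medians hold HOXB3 to HOXB9. HOXA had medians of 0.72 and 0.95, HOXC of 0.90 and 1.12 and HOXD of 0.49 and 0.78. With tags scaled to those in peaks, 14 and 21 of 25 were higher, against 20.8% and 33.2% of all genes, and none lower, against 16.8% and 23%. Per kb of peak 13 and 14 were higher, against 40% and 51.1%, with medians of 0.23 and 0.35 against 0.24 and 0.33 over all genes. HOXB3 to HOXB9 are among the higher genes in each of these counts. With tags scaled to those in peaks, this rests on the joining of peaks. As 1 region the stretch was not higher than mock there, with 0.189%, 0.181% and 0.175% of these tags.

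At the 5′ end of HOXA, HOXA13, the gene of the distal limb and hindgut, had normalized tag counts of 23.1, 99.7 and 113.7, log2 ratios of 2.11 (1.08 to 3.36) and 2.30 (1.28 to 3.54). The mock value rests on 8 tags, and the mock peak was 500 bp wide against 1627 and 1934 bp, so that per kb of peak the ratios were 0.41 and 0.35. HOXA4, on the 3′ side of the cluster, had 95.3, 200.4 and 272.8, ratios of 1.07 and 1.52. Both genes were higher with either MV kind, and HOXA4 was also higher with *V. cholerae* than with *E. coli* MVs, by 0.45 (0.20 to 0.70).

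The ratios of HOXA9, HOXA10, HOXA11, HOXA3 and HOXA6 were smaller. HOXA9, a gene of blood progenitors and of myeloid leukaemia, had 421.5, 702.9 and 766.2, ratios of 0.74 (0.48 to 1.00) and 0.86 (0.61 to 1.12). HOXA10, which shares that peak and has a further one, had 473.5, 772.2 and 854.6, and HOXA11 had 179.0, 289.7 and 352.0. HOXA3, with the peaks of several start sites, had 320.5, 520.5 and 578.7. All of these had more than mock with both MV kinds by more than counting error. HOXA6 had 26.0, 41.8 and 49.2, and its ratios of 0.69 (−0.37 to 1.91) and 0.92 (−0.09 to 2.11) did not exceed counting error.

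In HOXC, HOXC6 summed 4 peaks in each library, at 664.1, 1096.2 and 1152.7. HOXC8 had 60.6, 195.7 and 179.8, ratios of 1.69 (1.04 to 2.41) and 1.57 (0.92 to 2.29), and HOXC11 had 69.3, 167.2 and 233.6, ratios of 1.27 (0.65 to 1.95) and 1.75 (1.15 to 2.42). HOXC4 had 297.4, 449.3 and 546.4, HOXC5 had 60.6, 116.8 and 131.4, and HOXC9 had 89.5, 161.5 and 194.4. All 6 were past counting error with both MV kinds. The mock sum of HOXC8 leaves out 1 of 2 mock peaks of its region that lies beyond the window, and over the whole region the values were 112.6, 195.7 and 179.8, ratios of 0.80 and 0.68.

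In HOXD, the peaks counted for HOXD1 and HOXD3 had the highest values. That of HOXD1 lay at the 3′ end of the cluster. That of HOXD3 lay between HOXD4 and HOXD8, in mock 53.283 to 54.916 kb from this end. HOXD1 had 207.9, 291.6 and 356.6, ratios of 0.49 (0.11 to 0.88) and 0.78 (0.42 to 1.16). HOXD3 had 129.9, 149.1 and 162.9, and its ratios of 0.20 (−0.29 to 0.71) and 0.33 (−0.14 to 0.82) were within counting error. HOXD8 had 26.0, 84.5 and 96.1, ratios of 1.70 (0.71 to 2.88) and 1.89 (0.92 to 3.05) from 9 mock tags. Per kb of peak the HOXD8 ratios were −0.19 and −0.07, so the difference lay in the width that was called.

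The start site peaks listed in some libraries only were near the threshold. HOXD11, a gene of the limb and the urogenital tract, had 14.2 and 17.7 in the MV libraries, from 15 and 23 tags, little above the 11.5 that the mock list begins at. The peak of HOXC12 with *E. coli* MVs (chr12:54346676-54348154) was larger, with 98.8 from 104 tags, but only 5.4-fold over an input of 16 tags, and 9.42% of the peaks of that list had a lower fold. At the 4-fold threshold of the caller a count of 73.2 would have been needed there, so the same site with somewhat fewer tags would not have been listed. Whether these sites lacked H3K4me3 in the other libraries is therefore not detectable from the lists.

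Counting each joined region of overlapping peaks once, a choice added after seeing the data, gave 38 H3K4me3 regions in the 4 clusters, of which 27 were listed in all 3 libraries and 21 of those lay at a HOX start site. With *E. coli* MVs 20 of the 27 were higher than mock by more than counting error, against 52% of all 17695 regions, and none lower, against 2.81%. With *V. cholerae* MVs 20 were higher, against 53.4%, and 1 lower, against 8.5%. Their median log2 ratio was 0.69 and 0.89, above the 0.44 and 0.47 of all regions, and per kb of peak 0.31 and 0.36, against 0.08 and 0.11. By cluster the medians were 0.71 and 0.95 in HOXA, 0.64 and 0.98 over the 2 regions of HOXB, 0.68 and 0.88 in HOXC and 1.09 and 1.33 in HOXD.

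Not all of the high regions were at genes. Between HOXD13 and HOXD12 an intergenic region (chr2:176961257-176962990) had 23.1, 92.1 and 106.8, ratios of 2.0 and 2.21, and 0.21 and 0.56 per kb of peak. In HOXA an intergenic region upstream of HOXA7 (chr7:27199818-27201241) had 34.6, 102.6 and 140.6, ratios of 1.57 and 2.02. The only region lower than mock by more than counting error lay in an intron of HOXA3 that also holds the antisense gene HOXA-AS3 (chr7:27175153-27176589). It had 77.9, 61.7 and 27.7, and the ratio of *V. cholerae* MVs to mock was −1.49 (−2.25 to −0.72). An intergenic HOXC region near HOXC11 (chr12:54370944-54373090) had 144.3, 126.3 and 115.3, which was within counting error of mock for both.

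Base composition moved with these ratios. Over all regions the median log2 ratio rose from the lowest to the highest of 4 classes of GC content with equal numbers of regions, 0.02, 0.30, 0.52 and 0.87 for *E. coli* MVs and −0.47, 0.25, 0.65 and 1.21 for *V. cholerae* MVs. The HOX regions had a median GC content of 56.7% (range 43.1% to 69.1%) against 51.2%, and 1, 5, 10 and 11 of the 27 fell in the classes from low to high. Their medians in these classes were −0.34, 0.38, 0.64 and 1.07, and −1.49, 0.30, 0.82 and 1.53. HOXA13 had the highest GC content of the 27, 69.1%, and the lowered region in HOXA3 the lowest, 43.1%. In the upper 3 classes the HOX medians lay above those of all regions for both MV kinds, and the part of GC content in the differences was not tested.

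Between the MV kinds the H3K4me3 of HOX genes differed little. Of 26 genes with a peak in both, 8 were higher with *V. cholerae* than with *E. coli* MVs by more than counting error, against 37.4% of all genes, and none lower, against 9.41%. The median was 0.16 for HOX genes and 0.11 for all. The highest was HOXB13 at 0.68 (0.27 to 1.09), followed by HOXC11 at 0.48 (0.21 to 0.76). The split depends on the scaling: with tags scaled to those in peaks, 7 of the 26 were higher, against 28.3% of all genes, and 7 lower, against 15.3%. The 7 lower genes were HOXB3 to HOXB9, which share the 1 MV peak of the stretch, at a log2 ratio of 0.01 before this scaling, and so are 1 region.

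In FAIRE, 25 of the 39 HOX genes had a peak at a start site in mock, against 41.7% of all genes. With *E. coli* MVs it was 37, against 77.8%, and with *V. cholerae* MVs 30, against 62.4%. A peak in all 3 libraries was found at 21 genes, and HOXD9 had none in any. In mock the genes with a peak were 9 of HOXA, 7 of HOXB, 5 of HOXC and 4 of HOXD. The *E. coli* MV library had 10, 10, 9 and 8, so that only HOXA2 and HOXD9 had none, and with *V. cholerae* MVs 9, 10, 5 and 6. Peaks with both MVs and not in mock were found at HOXA10, HOXB4, HOXB6, HOXB8, HOXC11, HOXD4, HOXD8, HOXD12 and HOXD13, and with *E. coli* MVs only at HOXA11, HOXC5, HOXC8 and HOXC13. HOXC12, HOXD10 and HOXD11 had one in mock and with *E. coli* MVs, and HOXA2 in mock alone.

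These FAIRE peaks were weak. Of the peaks inside the 4 spans, 62, 110 and 85 in the 3 libraries, 91.9%, 85.5% and 84.7% had less than 8-fold over input, where the caller asked for 4-fold. The same shares were 86.9%, 70.6% and 85.9% over all FAIRE peaks, and for H3K4me3 in the spans 19.4%, 25.7% and 21.2%. With peaks of at least 8-fold alone, 2, 8 and 7 of the 39 genes kept a FAIRE peak, where 5.09%, 45.5% and 11.2% of all genes did. The FAIRE counts of HOX genes thus depend on peaks near the caller's threshold.

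FAIRE peaks covered 7.91%, 38.5% and 16.9% of the HOXA span. For HOXB the shares were 6.89%, 26.7% and 15.3%, for HOXC 8.02%, 36.1% and 14.3%, and for HOXD 4.71%, 23.8% and 8.88%. All clusters rose from mock over *V. cholerae* MVs to *E. coli* MVs. The whole genome did so too, at 1.38% in mock, 1.96% with *V. cholerae* MVs and 3.46% with *E. coli* MVs. Inside HOXB, FAIRE followed the H3K4me3 stretch: 9.64% of it was covered in mock against 4.96% of the rest of the span, 48.3% against 11.5% with *E. coli* MVs and 30.9% against 4.38% with *V. cholerae* MVs.

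Of the 23 stretches of the clusters where a FAIRE peak of all 3 libraries overlapped, the one with the highest fold in its weakest library lay within the HOXB stretch, in an intron of the noncoding gene LINC03057 (chr17:46716405-46717029). It had normalized tag counts of 12.4, 22.8 and 25.7, at 7.59-fold, 13.93-fold and 8.95-fold over input. Its middle 200 bases (hg19 chr17:46716618-46716817, plus strand) are shown as the open site of the clusters that is least near the threshold, with the 4 CG in capitals and a GC content of 60.5%.
HOXB shared FAIRE stretch: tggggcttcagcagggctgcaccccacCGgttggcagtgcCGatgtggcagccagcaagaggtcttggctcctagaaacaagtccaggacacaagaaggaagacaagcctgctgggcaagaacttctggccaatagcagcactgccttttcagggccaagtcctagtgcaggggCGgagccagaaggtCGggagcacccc

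Against mock, all 24 HOX genes with a FAIRE peak in both libraries were higher with *E. coli* MVs by more than counting error, where 94.9% of all genes were, and none lower, against 0.1%. The median log2 ratio was 3.15, close to the 3.07 of all genes. With *V. cholerae* MVs 12 of 21 were higher, against 70.8%, and none lower, against 2.81%, with a median of 1.21 against 1.38. Between the MV kinds none of 30 was higher with *V. cholerae* MVs, against 0.215%, and 29 were lower, against 90.2%, with a median of −1.73 against −1.59. These medians lie close to those of all genes, and the counts follow the scaling. With tags scaled to those in peaks, 12 were higher and 3 lower with *E. coli* MVs, against 50.6% and 11.9% of all genes. With *V. cholerae* MVs 8 were higher and 3 lower, against 39.5% and 13.2%, and between the MV kinds 5 were higher and 10 lower, against 14.4% and 33.6%.

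Single genes differed more than the family did. HOXB9 had a FAIRE value of 8.29 in mock and of 267.5 and 145.7 in the MV libraries, ratios of 5.01 (4.18 to 5.99) and 4.14 (3.29 to 5.12) in 1 region that the 3 libraries share. HOXC6 had 8.98, 308.0 and 122.5, ratios of 5.10 (4.30 to 6.03) and 3.77 (2.95 to 4.71), and HOXA9 had 11.7, 357.4 and 75.3, ratios of 4.93 (4.22 to 5.73) and 2.68 (1.92 to 3.52). The sums of HOXA9 and HOXC6 take 1 peak in mock and 3 or 4 in the MV libraries. In the region that the 3 libraries share, HOXA9 had 11.7, 64.6 and 17.4, ratios of 2.46 (1.64 to 3.35) and 0.57 (−0.43 to 1.58), the latter within counting error, and HOXC6 had ratios of 4.16 (3.34 to 5.11) and 2.71 (1.85 to 3.69). By their sums these 3 genes had the highest ratios with *E. coli* MVs, and all carried H3K4me3. HOXB3 had 33.1, 334.5 and 227.0, summed from 3, 6 and 6 peaks, and HOXB7 had 20, 347.4 and 68.7, from 2, 2 and 3.

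HOXA5, HOXB1, HOXB2 and HOXC10, all without H3K4me3, had a lower FAIRE value with *V. cholerae* MVs than in mock, within counting error. HOXB1 had FAIRE values of 15.2, 40.6 and 9.94, with ratios of 1.42 (0.59 to 2.27) and −0.61 (−1.76 to 0.46), and HOXB2 had 13.1, 63.4 and 9.94. HOXA5 had 14.5, 49.4 and 11.6, and HOXC10 had 11.7, 73.5 and 10.8. With tags scaled to those in peaks, HOXA5, HOXB1 and HOXB2 were lower by more than counting error. HOXC12, HOXD10 and HOXD11, at 26.3, 10.4 and 9.67 in mock, had no listed peak with *V. cholerae* MVs, and HOXA2, at 8.29, had none with either MV kind, so no ratio was taken. HOXD8, at 16.5 and 28.2 and no mock peak, was the only gene higher with *V. cholerae* MVs, by 0.77 (−0.19 to 1.82), within counting error.

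Taken once per joined region, 144 FAIRE regions lay in the clusters and 30 were listed in all 3 libraries. Of these, 24 were higher than mock with *E. coli* MVs, against 72% of all 14392 such regions, and 10 with *V. cholerae* MVs, against 43.6%. The medians were 1.85 and 0.47, against 1.95 and 0.71 over all regions, and per kb of peak 0.78 and 0.27 against 0.82 and 0.28. After HOXB9 the highest were the region of HOXB7 and HOXB8, with 11.7, 216.8 and 99.3, and that of HOXC6 and HOXC9, with 8.98, 161.0 and 58.8. Both lie at start sites with H3K4me3 in all 3 libraries.

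At HOX genes FAIRE peaks were found both with and without H3K4me3. In mock a FAIRE peak stood at 64% of the 25 HOX genes with H3K4me3 and at 64.3% of the 14 without, where over all genes the shares were 53.5% and 23.8%. In the *E. coli* MV library the shares were 100% and 83.3%, against 97.2% and 42.8%, and with *V. cholerae* MVs 84.6% and 61.5%, against 84% and 22.1%. The unmarked HOX genes with a FAIRE peak, HOXA2, HOXA5, HOXA7, HOXB1, HOXB2, HOXC10, HOXC12, HOXD10 and HOXD11, make up the 9 of 14 in mock, and the difference from unmarked genes at large was not tested. By peaks, 30.8% of the mock FAIRE peaks of HOXA, 56% of HOXB, 12.5% of HOXC and 12.5% of HOXD overlapped an H3K4me3 peak of the same treatment, against 8.2% of all. The *E. coli* MV library had 53.8%, 66.7%, 43.3% and 23.8%, against 20.6%, and with *V. cholerae* MVs 50%, 72.4%, 45.5% and 21.4%, against 21.3%. H3K4me3 peaks covered far more of the spans than of the chromosomes. In mock they covered 20.1%, 38.8%, 13.9% and 4.89% of the 4 spans, against 1.23% of chromosomes 1 to 22 and X. With the MVs the chromosomes were covered to 1.77% and 1.69%. The overlaps are thus not comparable with those of all peaks without regard to this coverage.

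The clusters also hold genes for noncoding RNAs. Of 26 long noncoding RNA genes inside the spans, 15, 19 and 18 had an H3K4me3 peak at a start site and 19, 26 and 19 a FAIRE peak. Many share the peak of a HOX gene, so their values are not separate measurements. The share over all long noncoding RNA genes was not taken, so these counts cannot be read as high or low. HOTAIR, a RNA of the HOXC cluster known for its ties to Polycomb, carried the values of HOXC11, 69.3, 167.2 and 233.6. HOXA11-AS carried those of HOXA11. Neither assay tells strands apart.

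The microRNAs miR-196a and miR-196b are encoded in the HOX clusters and are known to act on transcripts of HOX genes. Their mature sequences (RefSeq, GRCh38.p14) are shown because the 3 genes that encode them lie at the marked stretches, with the seed, bases 2 to 8, in capitals. The seed is the same, and they differ by 1 substitution, A12C, counted from the 5′ end of miR-196a.
hsa-miR-196a-5p: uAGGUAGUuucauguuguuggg
hsa-miR-196b-5p: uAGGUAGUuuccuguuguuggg
The hairpin of MIR196B (hg19 chr7:27209099-27209183) lay inside the peak of HOXA9 and HOXA10 in all 3 libraries, with 421.5, 702.9 and 766.2 for the whole peak. That of MIR196A1 (chr17:46709852-46709921) lay inside the HOXB stretch in all 3. That of MIR196A2 (chr12:54385522-54385631) lay 75 bp beyond a mock peak and inside the MV peaks, which had 316.3 and 248.2. MIR10B in HOXD (chr2:177015031-177015140) was not marked, with the nearest H3K4me3 peak 12679, 12611 and 12564 bp away, and MIR615 in HOXC lay in the peak of HOXC5. Of the 7 microRNA genes in the spans, 4 had H3K4me3 at the start in every library, and the share over all microRNA genes was not taken.

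HOX proteins bind DNA with cofactors of the PBX, MEIS and PKNOX families. Of these 9 genes, 5, 7 and 7 had an H3K4me3 peak, where 60.4%, 64.3% and 65.2% of all genes did, and 4 of the 5 with a peak in all libraries were higher than mock with either MV kind, near the 74.7% and 75.5% of all genes. Their medians were 0.62 and 0.82. PBX3 had 20.2, 163.4 and 214.4, ratios of 3.02 (1.94 to 4.35) and 3.41 (2.35 to 4.74). The ParaHox genes, the sister family of HOX, were marked at 3, 4 and 3 of 6. CDX2, the master regulator of intestinal identity, had 730.4, 1447.5 and 1536.3, and PDX1, of pancreas and duodenum, had 508.1, 890.9 and 950.7, both past counting error. GSX1 had 80.8, 114.9 and 111.4, within counting error.

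Of 14 genes beside the clusters, 9, 10 and 11 were marked, against 60.4%, 64.3% and 65.2% of all genes, and 7 and 6 of the 9 with a peak in all libraries were higher than mock, where 74.7% and 75.5% of all genes were, with medians of 0.46 and 0.59. HIBADH, an enzyme of valine breakdown next to HOXA, had 245.4, 433.1 and 475.0, and EVX1, the homeobox gene at the 5′ end of HOXA, had 158.8, 218.5 and 296.7. SMUG1, a DNA repair gene near HOXC, had 337.8, 368.5 and 400.4, within counting error.

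All 20 Polycomb genes and all 12 trithorax genes of the lists were marked in every library, where 60.4%, 64.3% and 65.2% of all genes were. With *E. coli* MVs 18 and 10 of them were higher than mock, against 74.7% of all genes, with medians of 0.63 and 0.60. With *V. cholerae* MVs it was 15 and 9, against 75.5%, with medians of 0.80 and 0.88, and none was lower with either. PHF1, a partner of the Polycomb methyltransferase complex, was far from the others at 52.0, 663.0 and 743.1, followed by CBX7, a reader of the Polycomb mark, at 40.4, 117.8 and 160.6. MTF2 had 701.5, 758.0 and 672.5, within counting error. Of the trithorax list KDM5B, which removes H3K4 methylation, had 138.6, 298.2 and 391.2 and MEN1, a partner of KMT2A at HOX genes, 109.7, 234.6 and 289.0, while KDM5A had 788.1, 781.7 and 732.4 and RBBP5 716.0, 773.2 and 635.6, within counting error of mock. The medians of both lists lay above those of all genes, 0.52 and 0.63, and this difference was not tested.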

How the data were processed

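H3K4me3 ChIP and FAIRE peak lists of HCT8 cells were used, 1 library per treatment and assay. Bowtie 1.1.2, SAMtools 1.3.1, HOMER 4.7.2 and hg19 are listed in the processing notes of the submitters, while the study's methods name Bowtie 2 for alignment and both MACS and HOMER for peak calling. Per the file headers, HOMER was run by the authors on every library alone in histone mode, with 1 input library per assay as control, its peak distance set to 1000 bp, and kept stitched peaks that reached 4-fold enrichment at a Poisson p of 0.0001. The deposited normalized tag count is a signal per 10000000 tags of the library. The deposited tag count of a peak (scaled to the input in 2 lists), the input tags, and the ratio of peak to input were used to describe the lists and for the alternative of at least 8-fold over input. The library totals stand in the file headers.

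Whole tags were recovered from the normalized values and the library total, at most 0.0721 from a whole number, and their ratios were given exact (Clopper-Pearson) 95% intervals, which cover counting error only, since PCR copies are not independent molecules. Genes and start sites came from the GRCh37 (hg19) annotation of GENCODE, release 44, and promoter and microRNA sequences from RefSeq tables on GRCh38.p14, whose coordinates were not converted. Peaks of an assay sharing at least 1 bp were joined into regions. With 1 library per treatment no test between treatments was made. The members and lists were chosen with earlier results of these data known. All 39 HOX genes enter the counts, 1 HOX gene and 1 cofactor are not reported here by name, and the other lists are represented by no more than 2 highest and 2 lowest ratios to mock per MV kind; PECAM1 was not found in the annotation. The intervals were checked on simulated tag counts. Alternatives changed the window, the start sites used, the fold over input, a floor common to the lists, the scaling, the value per 1000 bp of peak, the peaks shared by both libraries and the span. Python 3.11.15 with numpy 2.4.6, pandas 2.3.3, scipy 1.17.1 and matplotlib 3.10.9 was used.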

Additional observations from a re-analysis of the deposited data

How the results depend on the processing

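No paired analysis was possible because the labels give 1 library for every treatment of an assay. Of 380 alternative values, 311 kept the direction and stayed near the value given, among them all H3K4me3 peak counts and cluster coverages. FAIRE peaks of at least 8-fold over input, which leave fewer peaks by construction, were at 2, 8 and 7 HOX genes in mock, *E. coli* MVs and *V. cholerae* MVs: 0, 3 and 2 in HOXA, 0, 4 and 3 in HOXB, 0, 0 and 1 in HOXC, and 2, 1 and 1 in HOXD. They covered 0%, 5.18% and 0.934% of HOXA, 0.818%, 4.07% and 1.23% of HOXB, 0%, 0.853% and 0.976% of HOXC, and 1.36%, 4.3% and 2.95% of HOXD. With them the only gene with a peak in mock and with *E. coli* MVs had a log2 ratio of −0.03, reversed, and was not past counting error (0 of 1), no gene could be compared between *V. cholerae* MVs and mock (0 of 0), and between the MV kinds 1 of 2 was lower, with a median of −2.34. With only the 5′ end of each gene, mock FAIRE peaks were at 3 HOXC and 2 HOXD genes, 7 genes were higher in FAIRE with *V. cholerae* MVs than mock (7 also with a 500 bp window), and 1 was lower in H3K4me3 with *V. cholerae* than *E. coli* MVs. With a 2000 bp window 8 HOXC genes had FAIRE with *V. cholerae* MVs, and 2 genes were lower than mock.

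With tags scaled to those in peaks, 14 genes were higher in H3K4me3 with *E. coli* MVs (median 0.59; 0.58 with *V. cholerae* MVs), and 7 were lower with *V. cholerae* than *E. coli* MVs. Both counts hold HOXB3 to HOXB9, which are 1 region. In FAIRE, 12 were higher and 3 lower with *E. coli* MVs (median 0.76), 3 were lower with *V. cholerae* MVs (median 0.24), and 5 were higher and 10 lower between the MV kinds (median −0.31). Per 1000 bp of peak, 13 and 14 were higher than mock in H3K4me3 (medians 0.23 and 0.35), and 15 and 2 in FAIRE (medians 0.90 and 0.28), with 15 lower between the MV kinds (median −0.58). Joined regions, chosen after seeing the data, were taken here if listed in the 2 libraries compared, where the Results took those listed in all 3. Their H3K4me3 medians were 0.69 and 0.89, with 1 region lower with *V. cholerae* MVs than mock and 3 than *E. coli* MVs. The FAIRE medians were 1.79 with *E. coli* MVs and −1.29 between the MV kinds, with 1 higher. Joining gaps under 1000 bp, also chosen then, made the HOXB stretch of mock 80194 bp wide. Beyond the changes of construction named here the cause was not tested.

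The mock H3K4me3 library, the shallowest, limits H3K4me3: 1 tag there is worth a normalized count of 2.89, against 0.95 and 0.769 with MVs, and its list begins at 11.5, a floor under which 4736 and 4596 peaks of the MV lists lie. The mock values of HOXA6, HOXA13 and HOXD8 rest on 9, 8 and 9 tags.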
